A study of Mus musculus with 4 samples.

Results

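Zinc finger genes named Zfp and a number, lying within 200 kb of another such gene, formed the group described here. On the 19 autosomes the RefSeq annotation of GRCm38.p6 held 359 protein-coding genes with such a symbol (Zfp42 was not counted), of 20665 protein-coding genes in all. Of these, 226 had such a neighbour and are called clustered. They formed 51 clusters, and the other 133 are called single. The rule uses gene names and positions only.

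The lists came from Bruce-4 cells, a mouse embryonic stem cell line of C57BL/6J genotype grown on gelatin in medium with serum, 2i inhibitors and LIF, with no other group or treatment. Fixation in 1% formaldehyde lasted 10 min (10000000 cells per library), and of the 4 ChIP-exo libraries 2 were made with a CTCF antibody, 1 with an H3K4me3 antibody and 1 with a RAD21 antibody. ChIP-exo trims immunoprecipitated DNA with an exonuclease up to the crosslinked protein. The 3 deposited lists held 21624 H3K4me3, 51793 CTCF and 76021 RAD21 peaks, of which 21006, 50546 and 74004 lay on autosomes. The CTCF list is a union recorded under the second CTCF library. As a check of the cell type, H3K4me3 lay at an end of 8 of 8 embryonic stem cell marker genes, among them Pou5f1, Nanog and Sox2, of 2 of 6 fibroblast genes (Thy1 and Twist2) and of 1 of 5 genes of other lineages (Cd3e). A list holds positions only, so a missing peak shows that none was called, and a mark in few cells cannot be told apart from a weak mark in every cell.

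Most mouse Zfp genes encode C2H2 zinc finger proteins, many of them with a KRAB domain that recruits TRIM28 and the histone methyltransferase SETDB1 to silence transposable elements in embryonic stem cells. These genes multiplied by tandem duplication and often lie side by side, with similar sequences. H3K4me3 marks active or poised promoters, CTCF is a zinc finger protein that binds insulators and stops loop extrusion, and RAD21 is a subunit of cohesin, the ring that extrudes loops.

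Promoters of 9 clustered genes show the sequences behind the results that follow. Each runs 5′ to 3′ on the gene's strand, from 250 bases before to 50 bases after a RefSeq start site in GRCm38.p6. Zfp943 (chr17:21962309-21962608, plus strand) and Zfp758 (chr17:22361213-22361512, plus strand) are shown because each shares a divergent promoter with its neighbour, with H3K4me3 and with neither CTCF nor RAD21. Capitals mark the words of 40 bases that the promoters of these 2 genes share, 293 and 292 of 300 bases.
Zfp943: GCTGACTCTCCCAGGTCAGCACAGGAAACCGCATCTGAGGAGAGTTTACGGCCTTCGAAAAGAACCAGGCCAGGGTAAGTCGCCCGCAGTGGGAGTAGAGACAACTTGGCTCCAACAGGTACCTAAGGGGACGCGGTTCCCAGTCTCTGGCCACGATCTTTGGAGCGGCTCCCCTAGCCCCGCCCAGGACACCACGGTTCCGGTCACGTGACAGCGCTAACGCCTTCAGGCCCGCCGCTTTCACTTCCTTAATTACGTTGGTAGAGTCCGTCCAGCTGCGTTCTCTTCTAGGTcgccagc
Zfp758: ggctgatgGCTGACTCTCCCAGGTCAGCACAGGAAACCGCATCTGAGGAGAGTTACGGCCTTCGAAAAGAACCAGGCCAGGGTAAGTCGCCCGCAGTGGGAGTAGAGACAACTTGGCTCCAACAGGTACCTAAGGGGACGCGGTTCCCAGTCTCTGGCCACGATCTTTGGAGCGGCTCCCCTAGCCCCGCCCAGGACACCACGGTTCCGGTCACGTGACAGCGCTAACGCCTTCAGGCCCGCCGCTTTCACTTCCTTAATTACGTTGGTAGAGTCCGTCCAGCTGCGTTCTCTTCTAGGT
Zfp967 (chr2:176520754-176521053, plus strand) and Zfp973 (chr2:176670272-176670571, plus strand) make up a cluster with no peak of any list. Capitals again mark the shared words of 40 bases, 273 bases in each.
Zfp967: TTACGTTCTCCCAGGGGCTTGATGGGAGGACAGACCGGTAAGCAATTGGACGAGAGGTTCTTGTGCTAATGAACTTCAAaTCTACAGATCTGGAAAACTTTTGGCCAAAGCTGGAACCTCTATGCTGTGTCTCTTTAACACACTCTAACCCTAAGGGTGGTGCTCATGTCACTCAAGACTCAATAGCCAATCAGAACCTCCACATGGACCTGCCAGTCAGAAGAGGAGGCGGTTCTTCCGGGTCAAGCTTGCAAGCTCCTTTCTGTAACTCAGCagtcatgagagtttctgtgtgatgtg
Zfp973: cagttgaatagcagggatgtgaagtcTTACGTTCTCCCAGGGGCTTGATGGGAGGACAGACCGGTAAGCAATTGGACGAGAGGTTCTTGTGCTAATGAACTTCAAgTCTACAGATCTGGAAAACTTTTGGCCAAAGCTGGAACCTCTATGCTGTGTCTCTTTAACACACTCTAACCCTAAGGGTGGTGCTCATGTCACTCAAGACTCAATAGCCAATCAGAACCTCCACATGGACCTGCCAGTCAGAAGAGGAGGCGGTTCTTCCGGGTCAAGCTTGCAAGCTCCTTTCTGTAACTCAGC
Zfp948 (chr17:21566728-21567027, plus strand) had the longest CTCF peak at a clustered gene, and Zfp595 (chr13:67332511-67332810, minus strand) carried its CTCF peak at an inner start site rather than at its outer annotated ends. Capitals mark the bases under the CTCF peak, 181 and 72 bases.
Zfp948: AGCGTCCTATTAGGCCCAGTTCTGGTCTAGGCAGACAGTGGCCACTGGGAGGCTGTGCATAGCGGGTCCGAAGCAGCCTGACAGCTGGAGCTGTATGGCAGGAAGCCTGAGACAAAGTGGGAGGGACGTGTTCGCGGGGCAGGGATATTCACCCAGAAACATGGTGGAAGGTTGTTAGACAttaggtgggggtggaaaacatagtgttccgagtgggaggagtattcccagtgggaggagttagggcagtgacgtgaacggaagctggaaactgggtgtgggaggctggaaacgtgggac
Zfp595: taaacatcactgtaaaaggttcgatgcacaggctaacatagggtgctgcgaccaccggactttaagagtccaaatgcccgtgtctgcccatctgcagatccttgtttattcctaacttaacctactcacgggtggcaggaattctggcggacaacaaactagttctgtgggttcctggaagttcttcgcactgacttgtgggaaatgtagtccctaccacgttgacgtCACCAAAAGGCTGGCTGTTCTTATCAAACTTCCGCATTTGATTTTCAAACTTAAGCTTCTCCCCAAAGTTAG
Zfp82 (chr7:30072774-30073073, minus strand) stands for the genes with RAD21 and no CTCF at an end. Capitals mark the 183 bases under the RAD21 peak.
Zfp82: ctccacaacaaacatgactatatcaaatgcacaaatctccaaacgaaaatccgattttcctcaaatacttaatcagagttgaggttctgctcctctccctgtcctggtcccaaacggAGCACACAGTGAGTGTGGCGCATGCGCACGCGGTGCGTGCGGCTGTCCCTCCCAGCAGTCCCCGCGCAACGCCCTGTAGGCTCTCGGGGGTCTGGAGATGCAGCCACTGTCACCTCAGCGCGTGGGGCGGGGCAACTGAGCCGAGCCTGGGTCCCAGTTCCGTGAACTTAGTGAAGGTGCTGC
Zfp777 (chr6:48047745-48048044, minus strand) and Zfp988 (chr4:147305354-147305653, plus strand) show a CpG-rich and a CpG-poor promoter, with 51 and 4 CpG dinucleotides. Capitals mark these dinucleotides.
Zfp777: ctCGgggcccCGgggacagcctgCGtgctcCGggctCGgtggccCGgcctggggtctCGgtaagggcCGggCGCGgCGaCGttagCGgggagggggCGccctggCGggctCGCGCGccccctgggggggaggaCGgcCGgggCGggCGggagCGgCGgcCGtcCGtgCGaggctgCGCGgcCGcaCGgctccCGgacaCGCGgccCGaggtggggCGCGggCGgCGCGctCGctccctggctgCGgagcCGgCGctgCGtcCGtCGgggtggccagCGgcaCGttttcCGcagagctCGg
Zfp988: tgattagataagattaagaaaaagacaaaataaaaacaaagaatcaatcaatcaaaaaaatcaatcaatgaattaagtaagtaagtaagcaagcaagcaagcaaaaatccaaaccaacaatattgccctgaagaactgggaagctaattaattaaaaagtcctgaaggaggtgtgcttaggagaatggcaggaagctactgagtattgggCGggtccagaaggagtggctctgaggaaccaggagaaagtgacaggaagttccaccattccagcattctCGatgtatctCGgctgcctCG

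Clustered Zfp genes carried H3K4me3 at an end about as often as single Zfp genes. A peak within 1 kb of either annotated end was found at 178 of 226 clustered genes (78.8%, Wilson 95% interval 73.0 to 83.6) and at 107 of 133 single genes (80.5%, 72.9 to 86.3), against 58.0% of all autosomal coding genes. CTCF lay at 67 clustered genes (29.6%, 24.1 to 35.9) and 34 single genes (25.6%, 18.9 to 33.6), against 27.2% of coding genes. RAD21 lay at 119 clustered genes (52.7%, 46.2 to 59.1) and 68 single genes (51.1%, 42.7 to 59.5), against 39.4% of coding genes. The CTCF share of clustered genes thus lay near that of all coding genes, while the H3K4me3 and RAD21 shares lay above it in both kinds of Zfp gene.

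The differences between clustered and single genes were -1.69 percentage points for H3K4me3 (95% interval -9.92 to 7.28), 4.08 points for CTCF (-5.69 to 13.2) and 1.53 points for RAD21 (-9.05 to 12.1). All 3 intervals include 0 and leave room for differences of several points in either direction. The intervals cover counting error only: each antibody had 1 list, neighbouring genes share chromatin, and no test over samples could be made. The 96 other coding genes inside the cluster spans had H3K4me3 at 57 (59.4%), CTCF at 24 (25.0%) and RAD21 at 40 (41.7%), shares close to those of all coding genes.

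**Figure D1:**
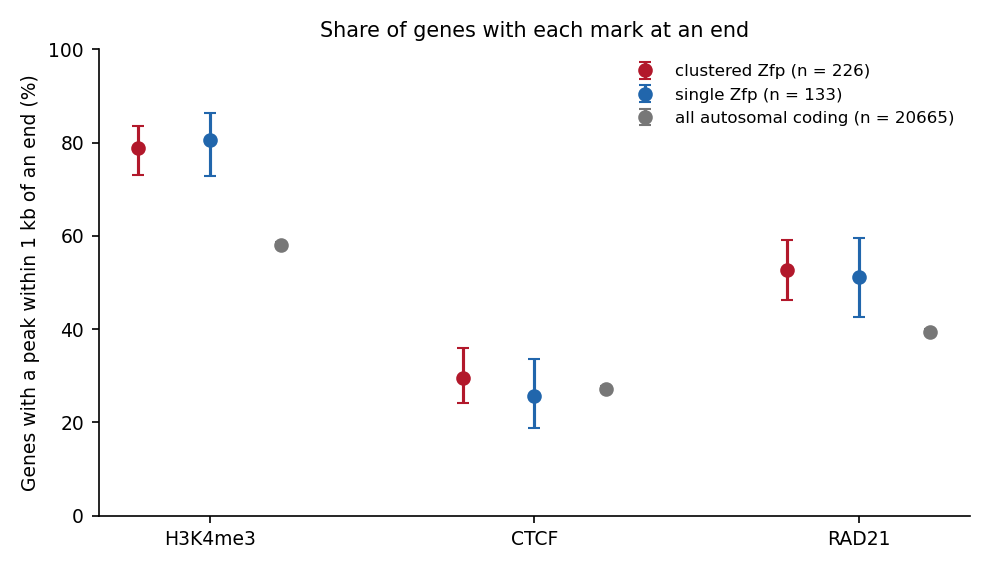
Share of genes with a peak of each list within 1 kb of an end, in percent, for 226 clustered Zfp genes, 133 single Zfp genes and all 20665 autosomal coding genes; bars are Wilson 95% intervals. The intervals of clustered and single genes overlap for all 3 marks, and both lie above all coding genes for H3K4me3 (78.8% and 80.5% against 58.0%).

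The marks sat at the 5′ end. Among the 196 clustered genes whose strand was known, 155 had H3K4me3 within 1 kb of the 5′ end and 13 within 1 kb of the 3′ end. CTCF lay at 48 of these 5′ ends and 12 of the 3′ ends, and RAD21 at 95 and 16. The 104 single genes with a known strand had H3K4me3 at 82 5′ ends and 3 3′ ends, CTCF at 22 and 7, and RAD21 at 51 and 6. In tandem arrays the 3′ end of a gene can lie beside the start of the next, as at Zfp53 and Zfp52 on chromosome 17. At the ends of clustered genes, 7 H3K4me3, 3 CTCF and 3 RAD21 peaks were counted for more than 1 gene, against none at single genes.

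Start sites were those farthest upstream in the promoter table, which for some genes, such as Zfp445, lie well inside the annotated 5′ end. Within 1 kb of this site, H3K4me3 peaks of clustered genes had a median midpoint 170 bp downstream (quartiles 48.5 and 287 bp), and 153 of 171 peaks (89.5%) covered the site. In single genes the median lay 275 bp downstream (quartiles 0 and 440 bp), and 64 of 101 peaks (63.4%) covered the site. CTCF and RAD21 peaks of clustered genes were centred near the start site, with medians of -42 bp and 8 bp, where a minus sign is upstream. In single genes these medians were -52 bp and -56 bp. RAD21 peaks covered the start site in 49 of 121 cases (40.5%) in clustered genes and 14 of 67 (20.9%) in single genes.

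**Figure D2:**
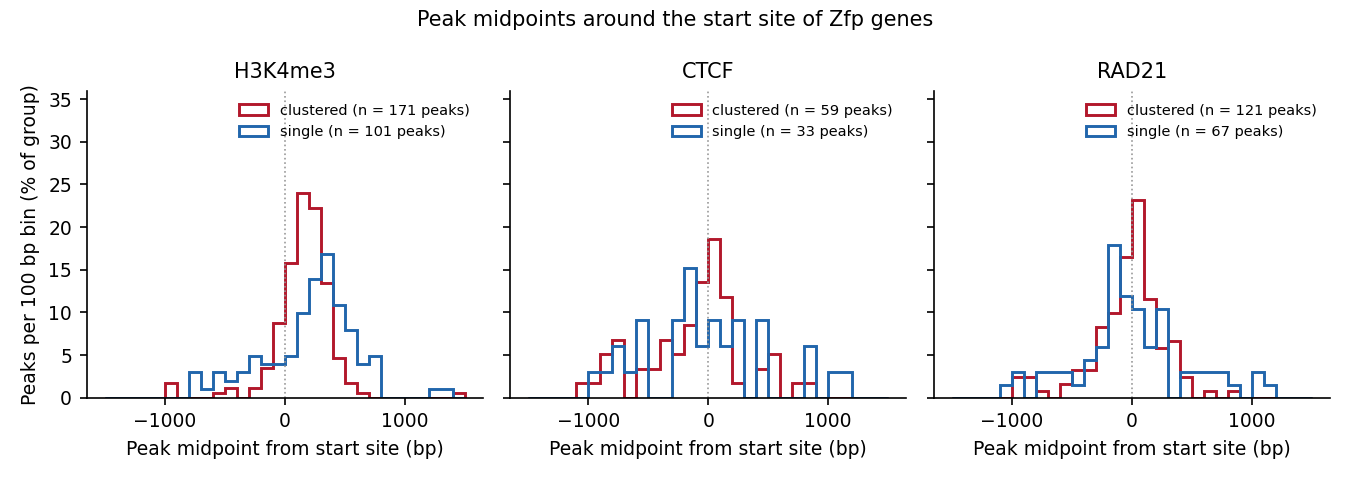
Midpoints of peaks relative to the start site farthest upstream in the promoter table, in bp with downstream positive, as percent of peaks per 100 bp bin for clustered and single Zfp genes. H3K4me3 midpoints of clustered genes are gathered just downstream of the start site (median 170 bp), and those of single genes are spread wider (median 275 bp).

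Median peak lengths differed little between the groups. At clustered gene ends the median length was 824 bp for H3K4me3, 106 bp for CTCF and 167 bp for RAD21. At single gene ends it was 879, 97.5 and 156 bp, and at all coding gene ends 837, 122 and 153 bp.

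The longest H3K4me3 peak at a clustered gene, 2119 bp, was shared by Zfp646 and Zfp668 on chromosome 7. The next, 1972 bp, lay at Zfp809, which encodes the repressor of proviruses of the murine leukaemia virus type. Zfp948 (630 bp), Zfp809 (579 bp) and Zfp983 (446 bp) had the longest CTCF peaks, and Zfp763 (825 bp), Zfp882 (728 bp) and Zfp658 (685 bp) the longest RAD21 peaks. Among single genes, the longest H3K4me3 peaks lay at Zfp64 (2052 bp), Zfp148 (1893 bp) and Zfp827 (1647 bp). Their longest CTCF peaks lay at Zfp788 (478 bp), Zfp346 (461 bp) and Zfp423 (454 bp), and their longest RAD21 peaks at Zfp11 (452 bp), Zfp941 (410 bp) and Zfp622 (392 bp). Clustered genes had more peaks to draw the longest from, 72 CTCF and 142 RAD21 peaks against 38 and 82 at single genes.

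At annotated ends, CTCF and RAD21 lay almost only at clustered genes that also had H3K4me3 there. Of the 178 clustered genes with H3K4me3, 66 had CTCF (37.1%) and 116 had RAD21 (65.2%). The 107 single genes with H3K4me3 had CTCF at 29 (27.1%) and RAD21 at 64 (59.8%), and all coding genes with H3K4me3 had them at 37.9% and 56.1%. Of the 48 clustered genes without H3K4me3 at an end, CTCF lay at 1 (Zfp428; 2.08%, interval 0.369 to 10.9) and RAD21 at 3 (Zfp93, Zfp428 and Zfp458; 6.25%, 2.15 to 16.8). All 3 of these genes had an H3K4me3 peak over the start site farthest upstream in the promoter table, so they lacked it only at the annotated ends. The 26 single genes without H3K4me3 at an end had CTCF at 5 and RAD21 at 4, and all coding genes without it had them at 12.5% and 16.4%. Only 29 of the 48 clustered genes lay outside the 5 almost peakless clusters described below, which held 0 CTCF peaks and 1 RAD21 peak.

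The commonest combination in clustered genes was all 3 marks, at 60 genes (26.5%), against 23 single genes (17.3%) and 18.4% of coding genes. H3K4me3 with RAD21 and no CTCF was found at 56 clustered genes (24.8%), 41 single genes (30.8%) and 14.1% of coding genes, and Zfp82, whose promoter is printed above, is one of the clustered ones. H3K4me3 alone was found at another 56 clustered genes (24.8%), 37 single genes (27.8%) and 21.9% of coding genes. H3K4me3 with CTCF and no RAD21 was rarer, at 6 clustered genes (2.65%), 6 single genes (4.51%) and 3.61% of coding genes. The clustered ones were Zfp628, Zfp629, Zfp457, Zfp623, Zfp707 and Zfp647. No mark at an end was found at 45 clustered genes (19.9%), 21 single genes (15.8%) and 34.4% of coding genes.

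Peak by peak, 54 of the 142 RAD21 peaks at clustered gene ends overlapped a CTCF peak (38.0%, interval 30.5 to 46.2). This share was 32.9% at single gene ends (23.7 to 43.7) and 50.7% at all coding gene ends. More of the RAD21 peaks overlapped H3K4me3: 76.1% at clustered gene ends (68.4 to 82.3), 61.0% at single gene ends (50.2 to 70.8) and 50.1% at all coding gene ends. Of the CTCF peaks, 73.6% overlapped RAD21 at clustered gene ends, 68.4% at single gene ends and 74.4% at all coding gene ends.

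Genes without a mark at the annotated ends could have a peak further in. Of the 48 clustered genes without H3K4me3 at an end, 20 had an H3K4me3 peak inside the gene, and of the 26 such single genes, 15 did. RAD21 lay inside 20 of these clustered genes (41.7%) and CTCF inside 8 (16.7%), and inside 19 and 14 of these single genes. At Zfp595 the H3K4me3 peak (566 bp), the CTCF peak (205 bp) and the RAD21 peak (342 bp) all covered the inner start site printed above. Counted at any RefSeq start site instead of the outer ends, H3K4me3 lay at 168 of 196 clustered genes (85.7%) and 91 of 104 single genes (87.5%).

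The clusters differed in size and marks. The sizes ran from 23 pairs up to clusters of 12, 12, 15, 18 and 19 genes. Chromosome 7 held 78 clustered genes in 15 clusters and chromosome 17 held 32 in 5. Every gene had H3K4me3 in 28 of the 51 clusters, RAD21 in 9 and CTCF in 3, which were the pairs Zfp932 and Zfp605, Zfp248 and Zfp9, and Zfp623 and Zfp707. No gene had H3K4me3 in 4 clusters, RAD21 in 11 and CTCF in 19. The mean share of marked genes over the 51 clusters was 79.2% ± 31.1 for H3K4me3, 30.2% ± 28.7 for CTCF and 48.6% ± 34.6 for RAD21 (SD over clusters).

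The largest cluster held 19 genes on chr13:67038594-67827000 (788 kb), with Zfp712 and Zfp273 at its edges. H3K4me3 lay at 14 of them, CTCF at 5 and RAD21 at 13, and 14 of the 17 genes with a known strand ran on the minus strand. Zfp456, Zfp738, Zfp65 and Zfp273 had all 3 marks at an end. Zfp708, Zfp759, Zfp595 and Zfp459 had none at an end, and all 4 had H3K4me3 inside the gene. Within 1 kb of the inner start site, Zfp759 and Zfp595 had all 3 marks and Zfp459 had H3K4me3 and RAD21. Zfp708, a KRAB zinc finger gene whose protein binds RMER19B repeats, thus had a peak inside and none at the ends. RAD21 ran through 7 genes in a row, from Zfp87 to Zfp273.

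The chr17:21383707-22456689 cluster (1073 kb) held 18 genes from Zfp677 to Zfp946 and was marked throughout: H3K4me3 lay at 18, RAD21 at 13 and CTCF at 8. The first 7 genes, Zfp677, Zfp54, Zfp51, Zfp53, Zfp52, Zfp948 and Zfp983, had all 3 marks. The next 7, from Zfp760 to Zfp947, had no CTCF at an end, and Zfp994 was the only further gene with all 3 at an end. Zfp229, one of these next 7, had CTCF of 233 bp and RAD21 of 152 bp within 1 kb of its start site. An H3K4me3 peak covered that site. CTCF peaks of the first 7 genes had longest lengths from 47 bp at Zfp53 to 630 bp at Zfp948. No gene of this cluster lacked every mark.

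Both divergent pairs in that cluster were marked alike. Zfp942 and Zfp943 have start sites 95 bp apart under 1 H3K4me3 peak of 1413 bp. Zfp944 and Zfp758 have start sites 63 bp apart under a peak of 1057 bp. None of the 4 genes had CTCF or RAD21. These promoters had 20 to 22 CpG dinucleotides, more than any other promoter of the cluster, and 75.1 to 85.4% of their 40-base words were also found in the promoter of another gene. The promoters of each pair overlap, so part of this sharing is the same DNA counted for both genes.

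The chr7:29768552-30169775 cluster (401 kb) held 15 genes from Zfp84 to Zfp146, with H3K4me3 at 14, RAD21 at 10 and CTCF at 3. Zfp74, Zfp568 and Zfp566 had all 3 marks. RAD21 lay at 8 genes in a row, from Zfp420 to Zfp566, and at none of Zfp260, Zfp382 and Zfp146, which followed. Zfp790, with no mark at an end, had H3K4me3 inside the gene, and H3K4me3 and RAD21 within 1 kb of its start site. Zfp568, which encodes the repressor of a placental Igf2 promoter, carried H3K4me3 of 1529 bp, CTCF of 190 bp and RAD21 of 77 bp.

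The chr7:24081877-24587840 cluster (506 kb) held 12 genes from Zfp180 to Zfp575 along with 11 other coding genes. Only 6 of the Zfp genes had H3K4me3 at an end, 5 had RAD21 and 2 had CTCF, and Zfp111 was the only one with all 3 at an end. Zfp235, Zfp109, Zfp61 and Zfp575 had none at an end, and all 4 had H3K4me3 inside the gene. At Zfp61 peaks of all 3 lists covered the inner start site, as did H3K4me3 and RAD21 peaks at Zfp109. Zfp93 and Zfp428, without H3K4me3 at an end, also had it over the start site. The span nevertheless held 40 CTCF peaks, 79.1 per Mb, while the flank of equal length before Zfp180 held 0 and the one beyond Zfp575 held 30. Few of the CTCF peaks in the span thus lay at the ends of its Zfp genes.

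The chr4:146449030-147849126 cluster (1400 kb) held 12 genes from Zfp992 to Zfp933 and was nearly empty of peaks. Zfp933, at its edge, had an H3K4me3 peak of 977 bp and a RAD21 peak of 71 bp, the shortest length in the RAD21 list. Zfp992, Zfp981, Zfp993, Zfp978, Zfp991, Zfp988, Zfp982, Zfp985, Zfp979, Zfp534 and Zfp984 had no peak of any list at an end. These 11 genes also had no H3K4me3 inside. The flanks, each as long as the cluster, were unlike: the one beyond Zfp933 held 43 H3K4me3, 76 CTCF and 99 RAD21 peaks, and the one before Zfp992 held 4, 11 and 19.

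**Figure D3:**
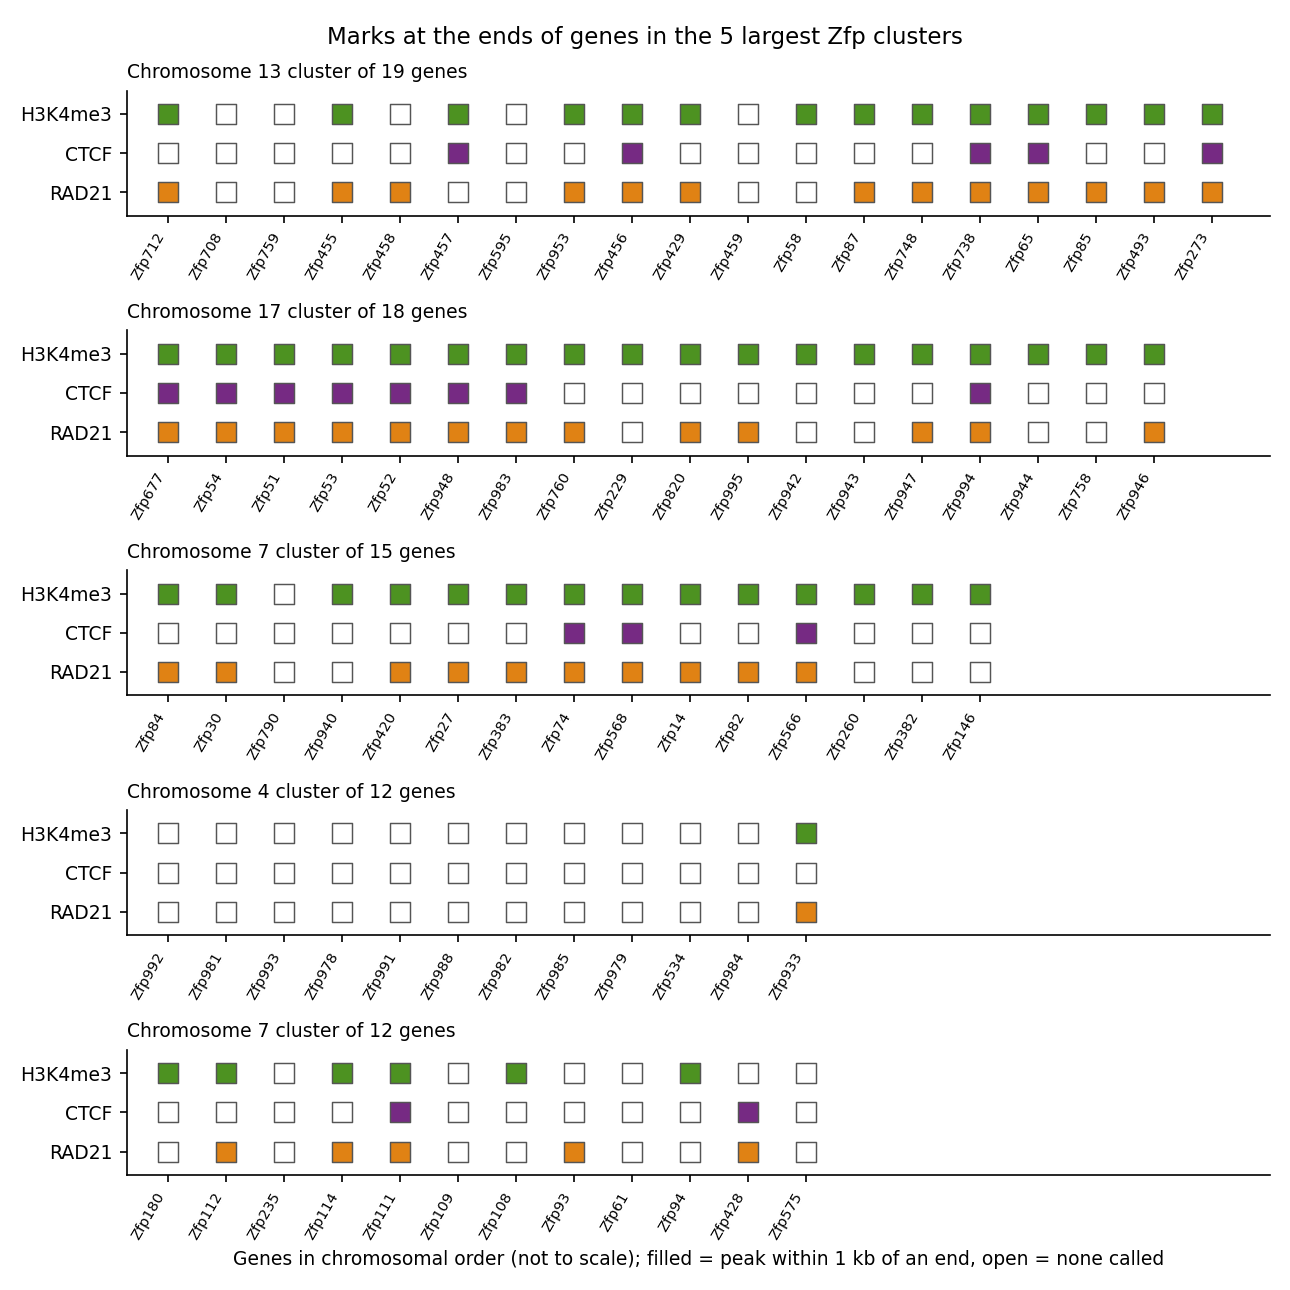
Marks at gene ends in the 5 largest clusters, 1 column per gene in chromosomal order (not to scale) and 1 row per list; a filled square is a peak within 1 kb of an end and an open square is none called. The chromosome 17 cluster has H3K4me3 at 18 of 18 genes and CTCF at its first 7, and the chromosome 4 cluster has marks at 1 of 12 genes.

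Among the clusters of 6 to 8 genes, H3K4me3 marked every gene of Zfp871 to Zfp563 on chromosome 17 (8 genes), Zfp786 to Zfp746 on chromosome 6 (7 genes) and Zfp628 to Zfp580 on chromosome 7 (6 genes). Zfp777, whose CpG-rich promoter is printed above, belongs to the chromosome 6 cluster, where 5 of the 7 genes had CTCF at an end and 5 had RAD21. Zfp777 itself had neither at an end but had CTCF within 1 kb of its start site. By cluster size, H3K4me3 lay at 34 of 46 genes in pairs (73.9%), 91 of 104 genes in clusters of 3 to 8 (87.5%) and 53 of 76 genes in clusters of 12 or more (69.7%). Of the 23 unmarked genes in the clusters of 12 or more, 11 were those of the chromosome 4 cluster.

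Together the spans of the 51 clusters covered 11.1 Mb. H3K4me3 peaks numbered 30.3 per Mb in the spans, 19.1 per Mb in flanks of equal length on each side and 8.54 per Mb over the autosomes, and were denser in the span than in the flanks at 38 clusters. CTCF peaks numbered 27.9 per Mb in the spans, 31.5 in the flanks and 20.5 over the autosomes, denser in the span at 20 clusters. RAD21 peaks numbered 41.4, 41.3 and 30.1 per Mb, denser in the span at 21 clusters. For CTCF and RAD21 the spans thus lay near their flanks. A span begins and ends at a Zfp gene, which a flank need not hold, and a peak across its edge counted for the span only. Spans and flanks were therefore not matched for gene ends, where H3K4me3 lies.

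**Figure D4:**
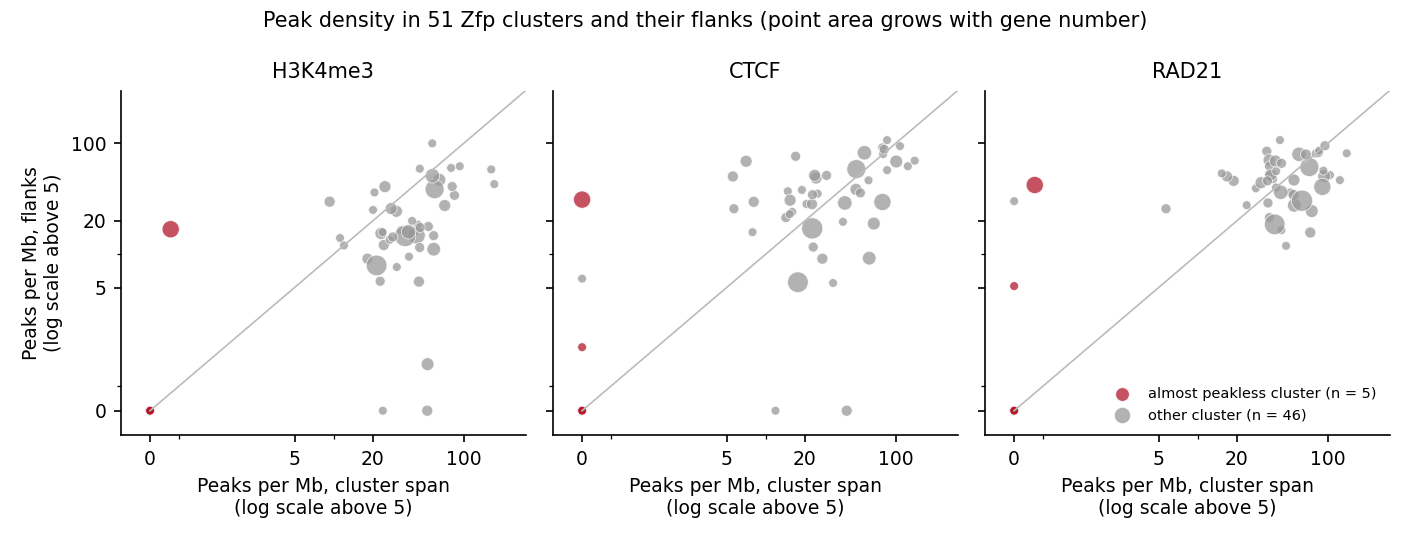
Peaks per Mb in the span of each of 51 clusters (x axis) against its flanks (y axis), on axes that are linear up to 5 and logarithmic above, with the line of equality; point area grows with the number of genes. For H3K4me3 most clusters lie on the side of the line where the span is denser (38 of 51), and 5 almost peakless clusters lie at the left edge.

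Very few peaks lay in 5 clusters, those with under 5 peaks of all lists per Mb, a limit chosen after the values had been seen. Besides the large chromosome 4 cluster these were the pairs Zfp990 and Zfp980 and Zfp987 and Zfp600 on chromosome 4, and Zfp968 and Zfp965 and Zfp967 and Zfp973 on chromosome 2. Their 20 genes covered 1.96 Mb, with 1 H3K4me3, 0 CTCF and 1 RAD21 peak. The other 46 clusters had 36.7 H3K4me3, 33.9 CTCF and 50.2 RAD21 peaks per Mb. Without the 5 clusters H3K4me3 lay at 177 of 206 clustered genes (85.9%). Leaving out clusters picked for few peaks raises this share by itself. Single genes were not picked in this way, and 1 of them lay in the chromosome 2 stretch described next.

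Except for the outer end of Zfp933, these clusters lay inside 2 long stretches with no peak of any list, chr4:145361225-147847892 (2.49 Mb) and chr2:174937010-177172629 (2.24 Mb). They held 18 and 23 coding genes, of which 15 and 5 were Zfp-number genes. Over the autosomes, gaps of at least 2 Mb between neighbouring peaks numbered 114 in the H3K4me3 list, 19 in the CTCF list and 5 in the RAD21 list. Promoters in both stretches were similar to other promoters: a 40-base word was shared with another gene's promoter by 11 of 13 (84.6%) on chromosome 4 and 19 of 22 (86.4%) on chromosome 2, against 21.0% of all coding genes. Words were matched on either strand, so overlapping promoters of neighbouring genes also share them as the same DNA. Such overlaps were not separated from repeated sequence in the shares given here and below. Reads from repeated sequence can be hard to place at 1 position. How the authors treated them was not stated in the sources used here, and its part in the missing peaks was not tested.

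Among all clustered genes, promoters with shared sequence were more frequent without H3K4me3 at an end, and the almost peakless clusters carried much of this. Of the clustered genes without H3K4me3 at an end, 21 of 40 promoters shared a word (52.5%, interval 37.5 to 67.1), against 29 of 156 with H3K4me3 (18.6%, 13.3 to 25.4). In single genes the shares were 2 of 20 without H3K4me3 and 18 of 84 with it. Of the 16 promoters in the almost peakless clusters 13 shared a word, against 37 of 180 in the other clusters (20.6%). Without the almost peakless clusters, a word was shared by 8 of 25 promoters of clustered genes without H3K4me3 (32.0%, 17.2 to 51.6) and 29 of 155 with it (18.7%, 13.4 to 25.6), and these intervals overlap. Among promoters without any shared word, H3K4me3 lay at 127 of 146 clustered genes (87.0%) and 66 of 84 single genes (78.6%), a difference of 8.41 points (-1.40 to 19.3). Genes whose promoter overlaps that of a neighbour can be left out by this split as well. The promoters of Zfp943 and Zfp758, which share sequence, lay under H3K4me3 peaks of 1413 and 1057 bp, longer than the promoters themselves. Neither gene had CTCF or RAD21 at an end. Whether shared sequence affected which peaks were called at these genes was not tested.

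Promoters of clustered genes held fewer CpG dinucleotides. The median in 300 bases was 11 (quartiles 7 and 17) for clustered genes, 17 (9 and 25) for single genes and 14 (4 and 25) for all coding genes. In clustered genes the median was 12 with H3K4me3 at an end and 9 without it, or 12 and 10 without the almost peakless clusters, and in single genes it was 18 and 5.5. Here and for the shared words, genes were split by annotated ends, while the promoter was that of the start site farthest upstream. Some genes without H3K4me3 at an end, such as Zfp61 and Zfp595, thus had it over that promoter. Of the 196 clustered genes with a promoter, 40 had none at an end and 28 none at any start site. Zfp27 carried an H3K4me3 peak of 846 bp with 1 CpG dinucleotide in its promoter.

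**Figure D5:**
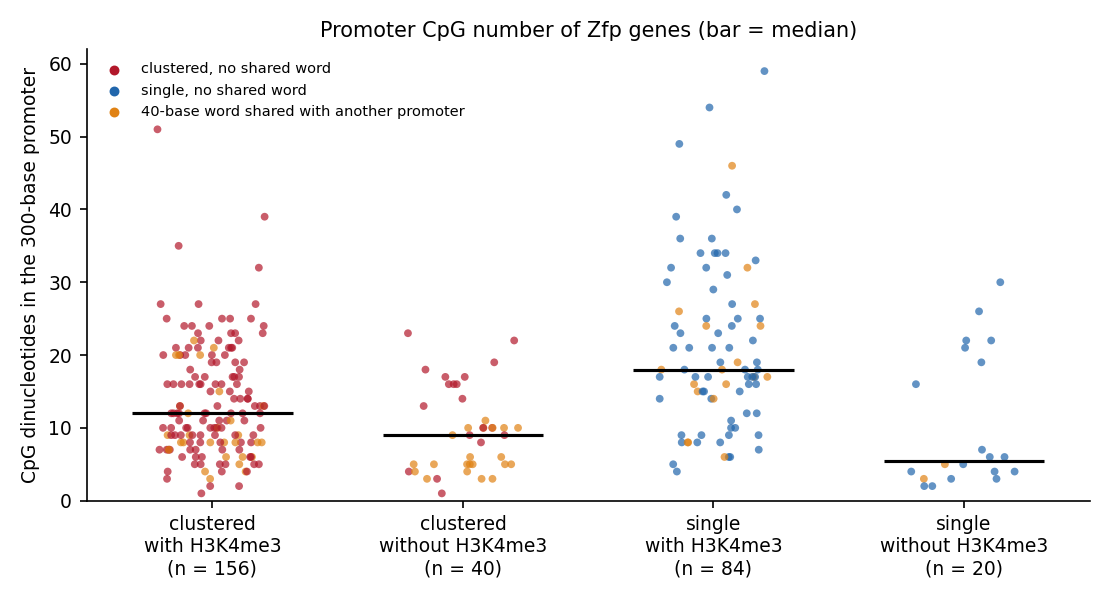
Number of CpG dinucleotides in the 300-base promoter of each Zfp gene, by group and by H3K4me3 at an end; bars are medians and orange points share a 40-base word with another gene's promoter. Medians are 12 with and 9 without H3K4me3 in clustered genes, and 18 and 5.5 in single genes.

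The letters AGGTGGC or AGGGGGC, the core of the CTCF motif, were searched on both strands. They were found in 19 of 196 promoters of clustered genes (9.69%, interval 6.29 to 14.6) and 19 of 104 of single genes (18.3%, 12.0 to 26.8). Counted per gene in the same way, all autosomal coding genes had them in 2982 of 16457 promoters (18.1%, 17.5 to 18.7). The share of single genes lay near this value, and that of clustered genes lay below it. Over all 32851 promoters, where a gene can have several, the letters were found in 16.0%. Of the 57 promoters of clustered genes with CTCF at an end, 7 held them (12.3%), against 12 of 139 without CTCF at an end (8.63%). Genes were again split by annotated ends, and some without CTCF there, such as Zfp777, had it within 1 kb of the start site. The promoter of Zfp777 held them and that of Zfp948 did not, and a window without these letters shows nothing about the factor elsewhere.

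Genes of known role covered the range of marks. In clusters, Zfp809, Zfp568 and Zfp932, a KRAB repressor of endogenous retroviruses, had all 3 marks. Zfp445, which with ZFP57 maintains imprints, had only H3K4me3 at an end, of 753 bp. At the inner start site of Zfp445 lay another H3K4me3 peak of 839 bp, with RAD21 of 71 bp within 1 kb, and CTCF lay inside the gene. Among single genes, Zfp57 had no mark at an end and H3K4me3 inside the gene, as did Zfp217, which encodes a corepressor-bound factor. Zfp281, a regulator of pluripotency, had all 3 marks, Zfp143, a promoter-binding factor, had H3K4me3 and RAD21, and Zfp36, which encodes an mRNA decay factor, had H3K4me3 alone. Over these 10 genes H3K4me3 lay at 7, CTCF at 4 and RAD21 at 5, near the shares of all coding genes (58.0%, 27.2% and 39.4%) for so short a list.

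Nearly every partner through which KRAB proteins silence their targets had H3K4me3 at an end. It lay at 15 of 16 of these genes, against 58.0% of all coding genes. RAD21 lay at 7 and CTCF at 6, against 39.4% and 27.2% of coding genes, so with 16 genes these counts lie near the background. Trim28, the corepressor that KRAB domains bind, had H3K4me3 of 1814 bp, CTCF of 283 bp and RAD21 of 139 bp. Setdb1, the H3K9 methyltransferase, had H3K4me3 of 1159 bp and RAD21 of 71 bp. Atf7ip, the partner of SETDB1, and Cbx1 and Cbx5, which encode heterochromatin protein 1, had all 3 marks. Cbx3, of the same family as Cbx1 and Cbx5, had H3K4me3 only. Daxx, a histone chaperone, had all 3 marks, and its partner Atrx had H3K4me3 only. Dnmt1, the maintenance DNA methyltransferase, had no mark at an end and H3K4me3 inside the gene.

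The distance of 200 kb set which genes counted as clustered. Just inside it lay Zfp433 (180 kb from the nearest such gene), with no mark, Zfp629 (158 kb), with H3K4me3 and CTCF, and Zfp467 and Zfp775 (156 kb apart), with H3K4me3 only. Just outside it lay Zfp516 and Zfp236 (217 kb apart), with H3K4me3 only, and Zfp414 (234 kb) and Zfp513 (250 kb), each with H3K4me3 and RAD21.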

How the data were processed

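ChIP-exo libraries were made from Bruce-4 cells. The submitters' processing notes name Bowtie2 2.4.5, MACS2, Picard 2.27.4 and bedtools 2.30.0 and the build mm10. Their settings, the peak threshold, any control and the treatment of reads with several positions were not stated in the sources used here. Each list was deposited by the authors as chromosome, start and end (other unit: positions in bp, with no count or score), so depth is unknown. The CTCF replicates had no separate lists analysed here.

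Genes and promoters came from RefSeq tables of GRCm38.p6 (mm10). A mark was assigned to a gene when a peak overlapped, by at least 1 bp, the 1 kb on either side of an annotated end. Strand and start sites came from the promoter table, which held 196 of 226 clustered and 104 of 133 single genes. A cluster span ran from its first to its last member. Intervals are Wilson (shares) and Newcombe (differences) at 95%. Python 3.11.15, numpy 2.4.6, pandas 2.3.3, scipy 1.17.1 and matplotlib 3.10.9 were used. Assignment was tested on simulated data and checked against bedtools 2.31.1. There were 13 planned and 4 added alternatives.

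The members and lists were chosen with earlier results of these data known. Named were the 5 largest clusters (edges, genes with all marks or none), the 3 longest peaks per mark and group, genes of known role, silencing partners and genes that complete a count of 5 or fewer. Others named (Zfp27, Zfp777, the pairs and runs) were chosen after their values were seen.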

Additional observations from a re-analysis of the deposited data

How the results depend on the processing

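Each antibody had 1 list, so no value has a replicate check. No paired analysis was possible because no groups of samples were compared. Under 17 alternatives, 4 of them chosen after seeing the data, the share of clustered genes with H3K4me3, CTCF and RAD21 moved beyond its interval as follows. It was 41.8%, 15.3% and 27.9% when each distinct gene end counted once, 61.9%, 16.8% and 35.4% with peaks above the median length, 87.6%, 46.0% and 71.2% with peaks anywhere in the gene, and 83.6%, 37.2% and 62.8% with a window of 2500 bp. CTCF gave 23.0% with a window of 500 bp and also without the shortest peaks. H3K4me3 gave 85.7% at any start site, 87.0% for promoters without shared words and 85.9% without the almost peakless clusters. The clustered minus single difference moved to -15.6 points for CTCF (-25.7 to -4.95) with peaks anywhere in the gene, where single genes are longer (median 21.3 kb, against 16.1 kb in clustered genes), and to 8.41 points for H3K4me3 without shared words. Its sign turned in 7 alternatives for H3K4me3, 3 for CTCF and 5 for RAD21, and only the CTCF value with peaks anywhere had an interval without 0.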

Other observations

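Zfp-number genes on the X chromosome stood outside the autosomal comparison. H3K4me3 lay at an end of 6 of 7 (Zfp182, Zfp300, Zfp449, Zfp185, Zfp275 and Zfp711, with longest peaks of 576 to 896 bp), CTCF at 0 and RAD21 at 1, Zfp182, with a peak of 269 bp. Zfp92 had no mark at an end and none of H3K4me3 or CTCF inside the gene.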
